A study of Mus musculus with 6 samples.

Results

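The Fc gamma receptor genes Fcgr1, Fcgr2b, Fcgr3 and Fcgr4, their signalling chain Fcer1g and the neonatal receptor gene Fcgrt were followed in cultured mouse marrow cells on a soft and a stiff substrate. They were taken by symbol from count tables of 24062 genes, and all 6 were found. Bone marrow of C57BL/6J mice was cultured with GM-CSF at 20 ng/ml, a cytokine that drives marrow precursors towards dendritic cells and macrophages, with fresh cytokine on days 3, 6 and 10. The low tension group grew at 2 kPa and the high tension group at 50 kPa, with 3 samples in each, and both groups received the same cytokine. The study asks how static stiffness alters transcription in such a culture. The titles call the samples dendritic cells, but the labels name no sort and do not give the number of mice or say whether they were pooled, so each value is an average over all cells of a sample. In such samples fewer cells of a type and less RNA per cell cannot be told apart.

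Fc gamma receptors bind the constant part of IgG and let myeloid cells take up and respond to antibody-coated particles and immune complexes. The activating receptors, encoded by Fcgr1, Fcgr3 and Fcgr4 in the mouse, have no signalling motif of their own for this purpose and depend on the common gamma chain encoded by Fcer1g, whose ITAM motif recruits the kinase Syk. Fcgr2b encodes the inhibitory receptor, whose ITIM motif recruits the lipid phosphatase SHIP, the product of Inpp5d. Dendritic cells and macrophages carry both kinds, and the balance between them sets the threshold for a response to immune complexes. Fcgrt encodes FcRn, a relative of MHC class I that pairs with beta-2 microglobulin and returns IgG from endosomes to the cell surface.

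The inhibitory and one of the activating receptors are close relatives in sequence, which bears on how their reads could be assigned. In GENCODE vM21 on GRCm38, Fcgr2b lies at chr1:170958617-170976547, minus strand, Fcgr4 at chr1:171018920-171029761, plus strand, Fcgr3 at chr1:171051174-171064935, minus strand, and Fcer1g at chr1:171229572-171234365, minus strand. Fcgr1 lies at chr3:96282909-96293969 and Fcgrt at chr7:45092990-45103851, both on the minus strand. The best local alignment of the Fcgr2b and Fcgr3 coding sequences held 509 aligned bases, of which 491 (96.5%) were identical. For the other pairs among the 4 receptor genes the identity was 57.0% to 64.2%. The longest run of coding bases that Fcgr2b and Fcgr3 share without a difference was 129 bases long. It is shown with 60 bases on either side, from exons 3 and 4 of each coding model (Fcgr2b coding bases 218 to 466, within chr1:170966614-170968141, and Fcgr3 coding bases 203 to 451, within chr1:171054107-171057852, both read on the minus strand). The 6 capitals mark the bases that differ.
Fcgr2b: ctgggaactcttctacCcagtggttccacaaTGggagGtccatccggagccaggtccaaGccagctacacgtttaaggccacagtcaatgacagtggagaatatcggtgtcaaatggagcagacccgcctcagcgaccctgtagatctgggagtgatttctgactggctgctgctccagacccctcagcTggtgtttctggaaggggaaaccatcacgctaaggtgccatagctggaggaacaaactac
Fcgr3: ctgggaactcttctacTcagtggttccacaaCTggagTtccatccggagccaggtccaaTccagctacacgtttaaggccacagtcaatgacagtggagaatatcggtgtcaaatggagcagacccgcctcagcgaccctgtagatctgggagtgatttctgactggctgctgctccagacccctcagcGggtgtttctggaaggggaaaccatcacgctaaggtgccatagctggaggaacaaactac

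Of all 50-base words in the coding transcripts of Fcgr3, 10.2% (166 of 1627) also occurred in Fcgr2b, which made 4.48% of the 3708 words of Fcgr2b. With 100-base words the shares were 2.70% and 1.14%. Fcgr1, Fcgr4, Fcer1g and Fcgrt shared no word of 50 bases with any other gene, while 10.7% of the Fcgr2b words occurred in some other gene, Fcgr3 included. Read length and the handling of multiple matches were not given in the sources used here. Counts of Fcgr2b and Fcgr3 are therefore uncertain where reads fell in these stretches. Fcgr2b also overlaps 155 exon bases of Gm38204 on the opposite strand.

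The 6 libraries held 33.8 M to 36.3 M counts, and the 6 genes had from 206 counts (Fcgr4) to 34162 counts (Fcgr2b) in a library. Levels are read counts scaled to library size after TMM normalisation (CPM), given as mean ± SD over n = 3 samples, and differences are log2 fold changes of 50 kPa over 2 kPa ± standard error from edgeR's quasi-likelihood test. High tension replicates 1 and 2 resembled each other far more than other replicates did, with a chi-square per degree of freedom of 6.71, where pairs of replicates otherwise gave 126 to 233. Whether replicates were separate cultures or mice is not stated in the labels, and p-values here cover just the scatter of these samples, possibly technical. Markers of the named cell type were present: the summed level of 12 dendritic cell genes was 5206 to 9902 CPM at 2 kPa and 11873 to 17811 CPM at 50 kPa. That sum is mostly Cd74, H2-Ab1 and Itgax, while 8 of the 12, Flt3, Zbtb46 and Ccr7 among them, had lower levels at 50 kPa (median log2 fold change of the list -0.60, 2 called lower and 0 higher by edgeR).

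None of the 6 genes passed the threshold of an adjusted p under 0.05 (edgeR), beside 3.45% of all 13155 genes tested (1.47% higher and 1.98% lower at 50 kPa). The inhibitory receptor Fcgr2b and the activating receptor Fcgr3 had higher values in each library at 50 kPa than in any at 2 kPa, a property of 34.1% of tested genes in one direction or the other and of 17.2% in this direction. Fcgr1 and Fcgr4, the other activating receptors, had lower means at 50 kPa, but their groups overlapped. With edgeR 1 of the 6 genes, Fcgr2b, had an unadjusted p under 0.05, as did 27.8% of all tested genes. DESeq2 called 1 of the 6, Fcgr2b, beside 18.0% of all tested genes, and limma-voom called 0 beside 3.27%, so neither count stands out from the share over all genes. The median log2 fold change of the 6 genes was 0.32 and that of all tested genes -0.03, with 4 of the 6 above 0. Scaling by total counts moved the median of all genes to -0.16 and the split of called genes from 194 higher and 260 lower to 77 and 257, and left the direction of each of the 6 as it was. With low tension replicate 2 or 3 or high tension replicate 1 or 2 left out, edgeR called 0 to 3 genes in all, so calls at this threshold, those of the pathway genes included, depended on each of these libraries.

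**Figure D1:**
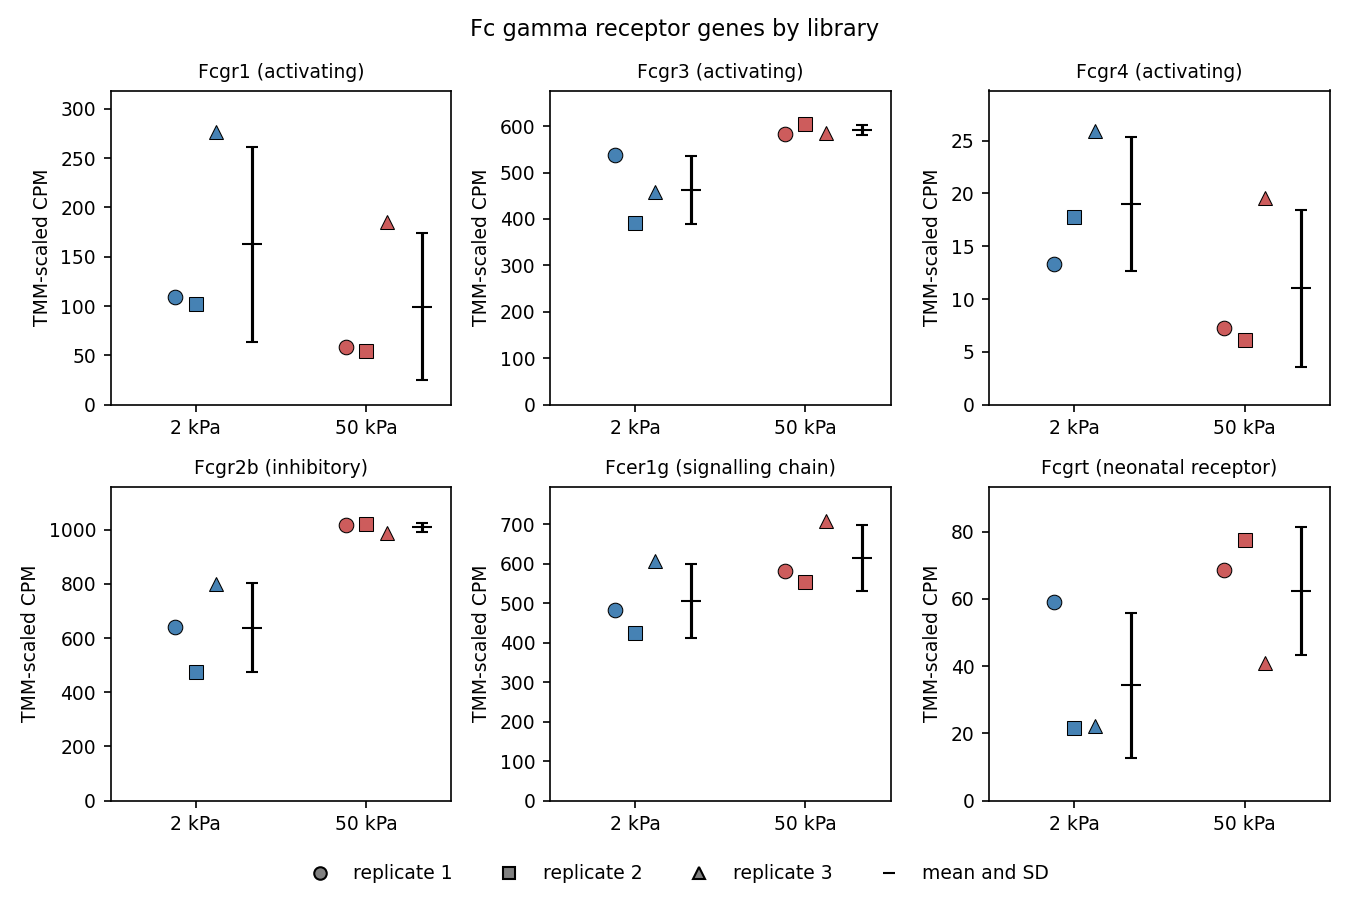
TMM-scaled CPM (vertical axis, starting at 0) of the 6 genes at 2 kPa and 50 kPa, with 1 symbol per replicate and the mean and SD of 3 samples beside them. Fcgr2b and Fcgr3 at 50 kPa lie above every 2 kPa library, while Fcgr1 and Fcgr4 are highest in replicate 3 of both groups.

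Fcgr2b, the only inhibitory receptor of the family, stood at 640 CPM, 474 CPM and 801 CPM in low tension replicates 1 to 3 and at 1018, 1019.7 and 988 CPM in high tension replicates 1 to 3. The groups did not overlap, and the 50 kPa libraries lay within a 1.03-fold range against a 1.69-fold range at 2 kPa. The means were 638 ± 164 and 1009 ± 17.6 CPM, a log2 fold change of 0.66 ± 0.21, which is 1.58-fold (95% interval 0.16 to 1.16 on the log2 scale, edgeR adjusted p = 0.113). DESeq2 gave 0.66 ± 0.23 with an adjusted p of 0.0289. Fcgr2b is also the Fc gamma receptor of B cells. The summed level of 10 B cell markers was 106 to 167 CPM at 2 kPa and 52.3 to 55.4 CPM at 50 kPa. Of these markers 9 had lower levels at 50 kPa, and 1, Cd22, had higher ones without overlap (8.04 to 21.7 CPM and 32.7 to 45.4 CPM, 1.37 ± 0.35, edgeR adjusted p = 0.0811) and made up most of the 50 kPa sum. Without Cd22, a split made after seeing the values, the sum of the other 9 was 84.2 to 158.6 CPM at 2 kPa and at most 19.6 CPM at 50 kPa. Their part in the Fcgr2b difference was not tested.

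Fcgr3, a low-affinity activating receptor, gave 538, 391 and 459 CPM at 2 kPa and 584, 604 and 586 CPM at 50 kPa. Again each library at 50 kPa lay above each at 2 kPa. The spread was narrower at 50 kPa, where replicates 1 and 2 were close over all genes (chi-square per degree of freedom 6.71). For Fcgr1 and Fcgr4 the fold range between libraries was instead wider at 50 kPa. The Fcgr3 means were 463 ± 73.4 and 591 ± 11.4 CPM, a log2 fold change of 0.35 ± 0.15 (95% interval -0.006 to 0.71, edgeR adjusted p = 0.185). The fold was 1.28. Across the 6 libraries Fcgr3 and Fcgr2b had a Pearson r of 0.86 on log2 CPM, a description only, since these are the relatives whose reads could be exchanged.

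Fcgr1 encodes the high-affinity receptor that can bind single IgG molecules. It stood at 109, 102 and 277 CPM at 2 kPa and at 58.1, 54.2 and 185 CPM at 50 kPa. Replicate 3 was the highest library in both groups, 2.71-fold above the lowest at 2 kPa and 3.42-fold at 50 kPa, and high tension replicate 3 lay above low tension replicates 1 and 2. The log2 fold change was -0.71 ± 0.62 (163 ± 98.9 to 99.2 ± 74.6 CPM, 95% interval -2.20 to 0.78, edgeR adjusted p = 0.473). Without high tension replicate 3 it was -1.53 and without low tension replicate 3 it was -0.09, and neither fit called it (edgeR adjusted p = 0.126 and 0.929).

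Fcgr4, an activating receptor for IgG2 subclasses, was the least abundant of the family. It gave 13.4, 17.7 and 25.9 CPM at 2 kPa and 7.28, 6.15 and 19.6 CPM at 50 kPa. As for Fcgr1, the library of replicate 3 was the highest in each group, and the 50 kPa library of that number exceeded the 2 kPa libraries of replicates 1 and 2. The log2 fold change was -0.79 ± 0.49 (95% interval -1.97 to 0.40, edgeR adjusted p = 0.331). It was -1.49 without high tension replicate 3 (edgeR adjusted p = 0.0665) and -0.49 without high tension replicate 2.

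Fcer1g, the gamma chain that the activating receptors need for signalling and surface expression, had the smallest fold change of the 6. It stood at 482, 425 and 608 CPM at 2 kPa and at 581, 552 and 708 CPM at 50 kPa, where low tension replicate 3 lay above high tension replicates 1 and 2. The means of 505 ± 93.6 and 614 ± 83.0 CPM gave a log2 fold change of 0.28 ± 0.18 (95% interval -0.16 to 0.73, edgeR adjusted p = 0.348).

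Fcgrt, the FcRn heavy chain, gave 59.2, 21.5 and 22.1 CPM at 2 kPa and 68.6, 77.6 and 41.0 CPM at 50 kPa. The groups overlapped through low tension replicate 1, which lay above high tension replicate 3. The log2 fold change was 0.86 ± 0.46 (34.3 ± 21.6 to 62.4 ± 19.1 CPM, 95% interval -0.24 to 1.97, edgeR adjusted p = 0.265). Without low tension replicate 1 it was 1.52 (edgeR adjusted p = 0.0537). B2m, which encodes the light chain of FcRn and of all MHC class I molecules, stood at 3412, 2945 and 4886 CPM at 2 kPa and at 5708, 5438 and 6473 CPM at 50 kPa (0.65 ± 0.25, edgeR adjusted p = 0.165). Its groups did not overlap, with 50 kPa above 2 kPa, which held for 17.2% of tested genes. DESeq2 called B2m higher (adjusted p = 0.0422), while it called 18.0% of tested genes in one direction or the other.

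To set activating receptors against the inhibitory one, the log2 ratio of counts to Fcgr2b was taken within each library, where library scaling cancels. The ratio of Fcgr4 to Fcgr2b was -5.58, -4.74 and -4.95 at 2 kPa and -7.12, -7.37 and -5.66 at 50 kPa, lower in each 50 kPa library than in any at 2 kPa. The difference of means was -1.63, a ratio 3.09-fold lower at 50 kPa. The ratio of Fcer1g to Fcgr2b was -0.41, -0.16 and -0.40 at 2 kPa and -0.81, -0.88 and -0.48 at 50 kPa, also without overlap, with a difference of -0.40. For each of these 2 ratios the 2-sided exact permutation test over samples gave p = 0.1, the smallest that 3 against 3 allows, and 0.2 after Benjamini-Hochberg adjustment over the 4 ratios computed. The share of all genes whose ratio to Fcgr2b did not overlap was not computed. Fcer1g itself had a higher mean CPM at 50 kPa (log2 fold change 0.28), as did Fcgr2b (0.66).

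Fcgr1 to Fcgr2b was -2.55, -2.21 and -1.53 at 2 kPa and -4.13, -4.23 and -2.42 at 50 kPa. Here high tension replicate 3 overlapped the soft group (difference -1.49, 2-sided exact permutation p = 0.2, adjusted 0.267), and without it the difference was -2.08. Fcgr3 to Fcgr2b was -0.25, -0.28 and -0.80 at 2 kPa and -0.80, -0.75 and -0.75 at 50 kPa, so low tension replicate 3 had the same ratio as the stiff cultures (difference -0.33, 2-sided exact permutation p = 0.4). Without low tension replicate 3 that difference was -0.51. All 4 ratios had lower means at 50 kPa, and the 4 share Fcgr2b as their denominator. Fcgr2b was itself higher at 50 kPa without overlap (log2 fold change 0.66), beside a median of -0.03 for all tested genes. A gene of unchanged level would thus also have a lower ratio. Fcgr3 and Fcer1g themselves had higher mean CPM at 50 kPa.

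**Figure D2:**
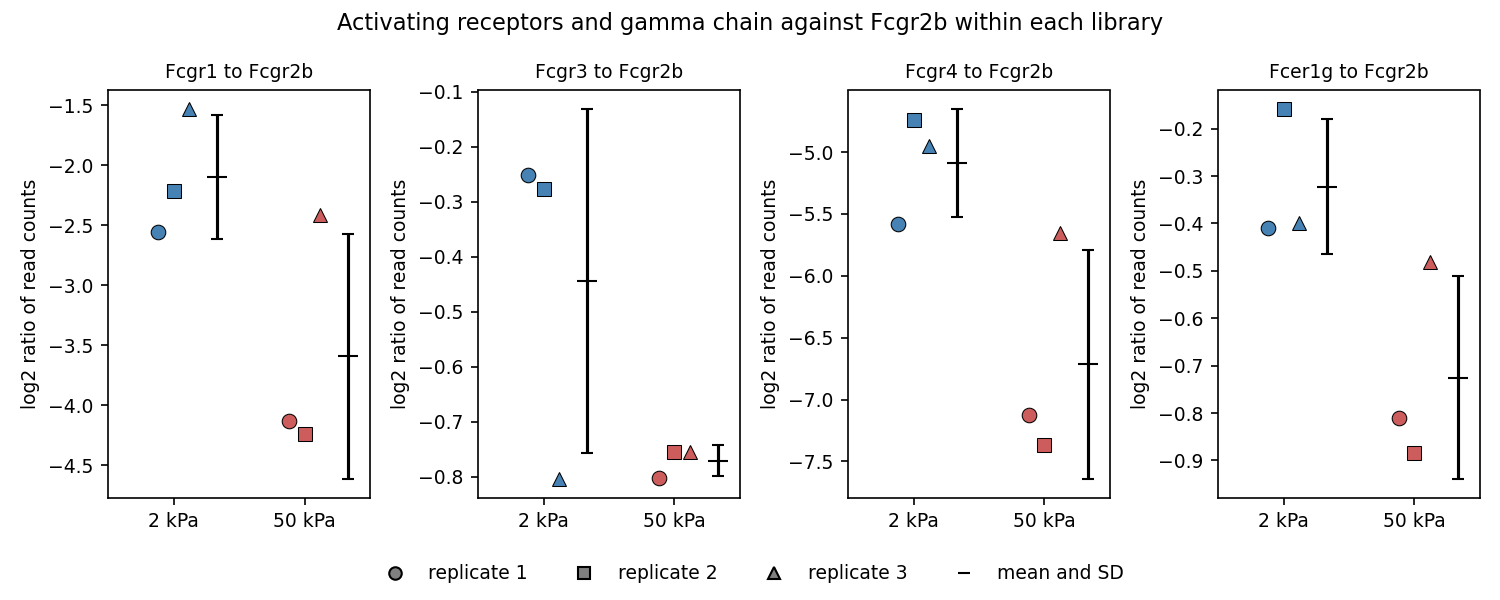
Log2 ratio of read counts to Fcgr2b (vertical axis, own scale in each panel) for Fcgr1, Fcgr3, Fcgr4 and Fcer1g in each library, with the mean and SD of 3 samples per group. The Fcgr4 and Fcer1g ratios at 50 kPa all lie below those at 2 kPa, and in the Fcgr3 panel low tension replicate 3 sits with the 50 kPa libraries. Fcgr2b, the shared denominator, was itself higher at 50 kPa.

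Levels of different genes were compared only per length, as CPM per kb of merged exons or of coding sequence. Per kb of merged exons, the order at 2 kPa was Fcer1g (675 ± 125), Fcgr3 (284 ± 45.1), Fcgr2b (168 ± 43.0), Fcgr1 (62.8 ± 38.2), Fcgrt (19.2 ± 12.1) and Fcgr4 (15.1 ± 5.08). At 50 kPa it was the same order, with 821 ± 111, 363 ± 6.99, 265 ± 4.62, 38.3 ± 28.8, 35.0 ± 10.7 and 8.76 ± 5.93. Fcgr1 and Fcgrt at 50 kPa, and Fcgrt and Fcgr4 at 2 kPa, were neighbours that overlapped within their spread. The Fcgr2b model has much non-coding exon sequence (3810 bases of merged exons against 1020.0 coding bases), and its place depends on the length used. Per kb of coding sequence Fcgr2b stood above Fcgr3, at 626 ± 161 against 578 ± 91.7 at 2 kPa, a difference within the spread, and at 989 ± 17.2 against 738 ± 14.2 at 50 kPa.

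Among the 4 receptors, Fcgr2b made up 30.5%, 29.7% and 33.9% of the level per kb of merged exons at 2 kPa and 40.9%, 40.3% and 36.7% at 50 kPa. Fcgr3 made up 45.5% to 59.9% and 50.9% to 55.8%, Fcgr1 7.64% to 17.3% and 3.15% to 10.1%, and Fcgr4 1.93% to 3.38% and 0.737% to 2.21%. The sum of the 3 activating receptors over Fcgr2b was 2.28, 2.36 and 1.95 at 2 kPa and 1.45, 1.48 and 1.72 at 50 kPa, which did not overlap. With coding lengths it was 1.06 to 1.28 at 2 kPa and 0.788 to 0.940 at 50 kPa, so the side of 1 on which it fell depends on the length used. The log2 difference between the groups was -0.50 on both scales. The share of all genes with such a pattern against Fcgr2b was not computed. Per kb of merged exons the denominator Fcgr2b was itself higher at 50 kPa (mean 168 to 265). Of the numerator, Fcgr3 was higher (284 to 363), and Fcgr1 (62.8 to 38.3) and Fcgr4 (15.1 to 8.76) were lower. Fcer1g per kb of merged exons over the summed activating receptors was 1.68, 1.93 and 1.98 at 2 kPa and 2.01, 1.86 and 2.12 at 50 kPa, which overlapped.

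**Figure D3:**
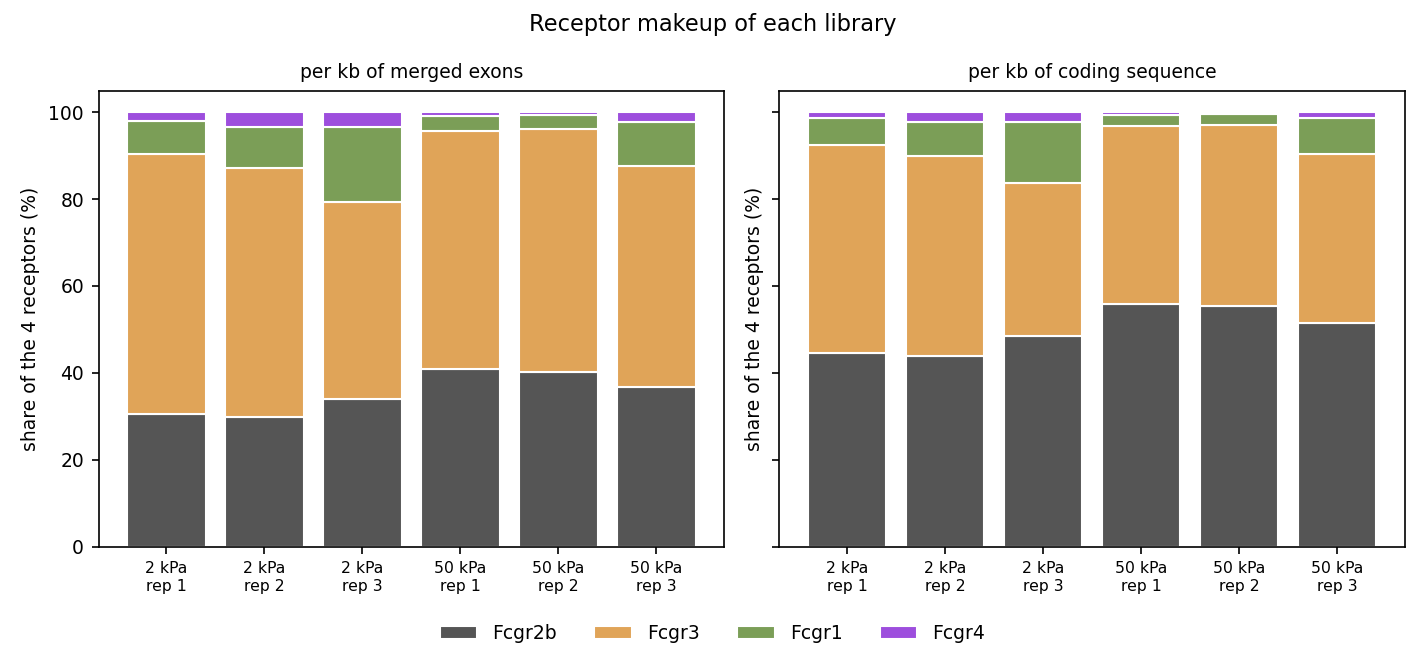
Share of Fcgr2b, Fcgr3, Fcgr1 and Fcgr4 (stacked bars, percent, from 0 to 100) in their summed level per kb in each of the 6 libraries, with merged exons on the left and coding sequence on the right. Fcgr2b takes 29.7% to 33.9% of the bars at 2 kPa and 36.7% to 40.9% at 50 kPa by merged exons, and more by coding sequence.

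The 6 genes fell into different patterns across libraries. Fcgr1 and Fcgr4 ran together (Pearson r = 0.95 on log2 CPM over 6 libraries), and Fcgr1 had an r of -0.17 with Fcgr2b. These are descriptions over 6 libraries that share the contrast of stiffness, and many genes reach a high r: 479 of 9683 compared genes had an r over 0.9 with Fcgr1, 537 with Fcgr4, 588 with Fcgr2b, 636 with Fcgr3, 167 with Fcer1g and 730 with Fcgrt. The 3 genes most like Fcgr1 were Ddx60, Xaf1 and Slfn8 (r = 0.997, 0.997 and 0.995). Those most like Fcgr4 were Milr1, Slfn4 and Oas2 (0.998, 0.998 and 0.995). Ddx60 stood at 53.4, 48.7 and 226 CPM at 2 kPa and at 24.7, 20.4 and 107 CPM at 50 kPa. It was highest in replicate 3 of each group, as its choice by likeness to Fcgr1 entails. Slfn4 stood at 416, 755 and 1742 CPM at 2 kPa and at 99.0, 56.6 and 847 CPM at 50 kPa.

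The genes most like Fcgr2b were Dcstamp, Gkap1 and Pik3ip1 (r = 0.997, 0.995 and 0.994), and those most like Fcgr3 were Gltp, Spp1 and Cyp2ab1 (0.996, 0.996 and 0.995). Dcstamp, a membrane protein needed for fusion of osteoclasts and macrophages, stood at 56.6, 30.2 and 82.8 CPM at 2 kPa and at 159, 160.0 and 142 CPM at 50 kPa. Spp1, which encodes osteopontin, stood at 4057, 1392 and 2419.6 CPM at 2 kPa and at 6546, 6669 and 6060.1 CPM at 50 kPa. Both had all 50 kPa libraries above all 2 kPa libraries, like the genes they were picked to resemble, and 17.2% of tested genes did so. Gngt2, Ankrd40 and Rab7 were most like Fcer1g (0.991, 0.983 and 0.982), and Tbc1d16, Ucp2 and Cd209c were most like Fcgrt (0.998, 0.997 and 0.997).

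Interferon gamma is a textbook inducer of Fcgr1 and Fcgr4, and IL-4 one of Fcgr2b. Of 18 genes listed for cytokine and transcription factor control of these receptors, 0 rose, 1 fell and 17 were not called by edgeR. That count is near the 3.45% called over all genes, and the median log2 fold change of the list was -0.06. The gene that fell was Il10, which encodes an anti-inflammatory cytokine (3.98 ± 1.83 to 0.449 ± 0.157 CPM, -3.14 ± 0.45, edgeR adjusted p = 0.0353). Irf1, an interferon-induced transcription factor named after its values were seen, stood at 156, 113 and 462 CPM at 2 kPa and at 80.7, 80.3 and 130.1 CPM at 50 kPa (-1.33 ± 0.55, edgeR adjusted p = 0.18). In Irf1, as in Fcgr1 and Fcgr4, replicate 3 was the highest library of its group. Whether interferon signalling had a part in the receptor values was not tested.

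**Figure D4:**
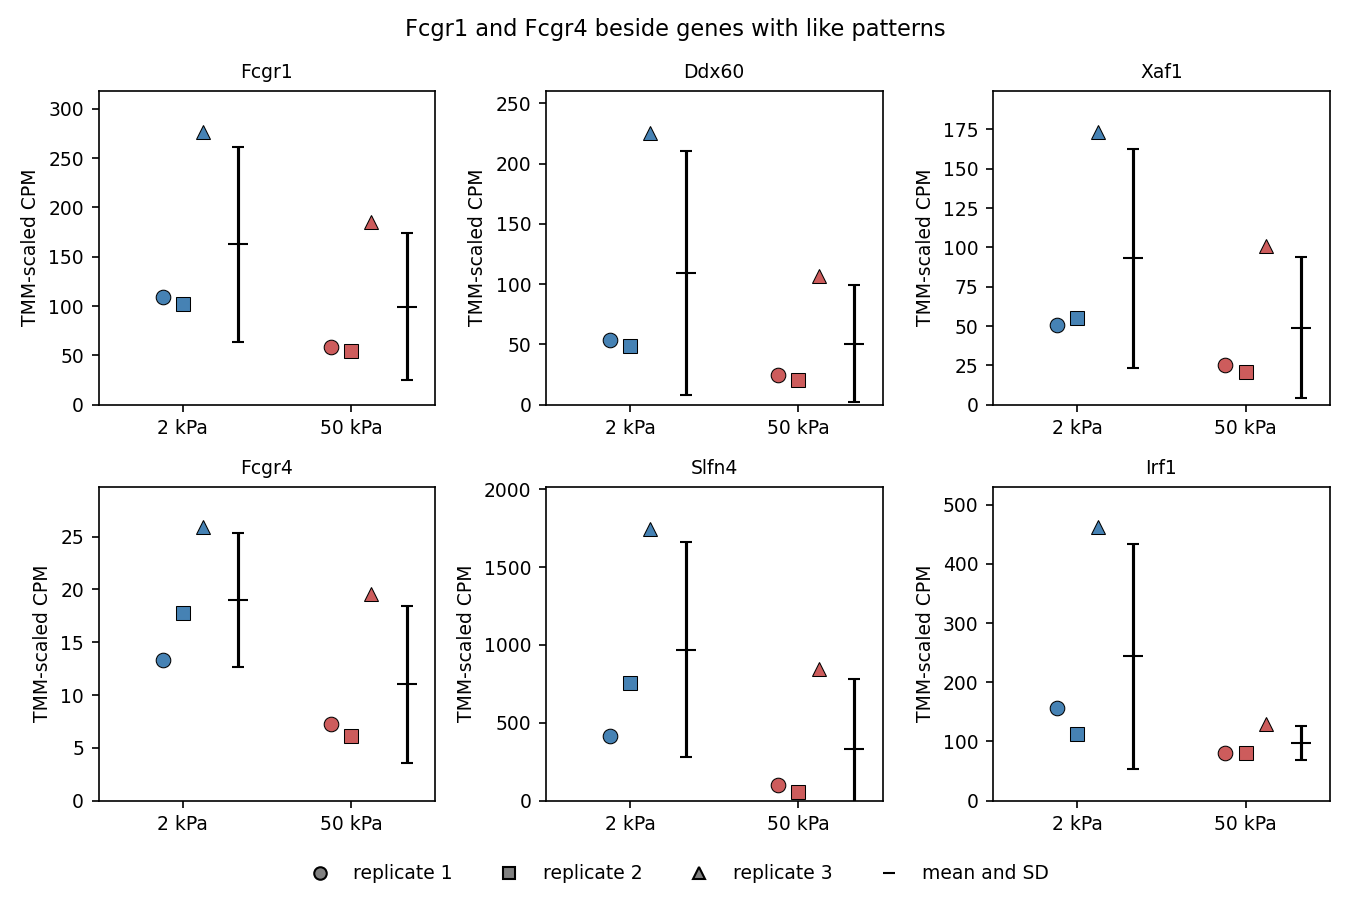
TMM-scaled CPM (vertical axis, starting at 0) of Fcgr1, Ddx60 and Xaf1 (top) and of Fcgr4, Slfn4 and Irf1 (bottom) in each library, with the mean and SD of 3 samples per group. In all 6 genes replicate 3, drawn as a triangle, is the highest library of both groups, and the SD bar of Slfn4 at 50 kPa reaches below 0 and is cut at the axis. Ddx60 and Xaf1 were picked for likeness to Fcgr1, Slfn4 for likeness to Fcgr4, and Irf1 after its values were seen.

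Because Fcgr1 and Fcgr4 ran together across libraries, the 250 bases before their RefSeq start sites (GRCm38.p6) were searched on both strands for 3 motifs: the interferon gamma response motif GAS as TTCNNNGAA, the interferon-response motif ISRE (GAAA, any 2 bases, GAAA), and GAGGAA, the core bound by the myeloid factor PU.1. The windows are chr3:96293970-96294219, minus strand, for Fcgr1 and chr1:171018676-171018925, plus strand, for Fcgr4, and the capitals mark every match.
Fcgr1: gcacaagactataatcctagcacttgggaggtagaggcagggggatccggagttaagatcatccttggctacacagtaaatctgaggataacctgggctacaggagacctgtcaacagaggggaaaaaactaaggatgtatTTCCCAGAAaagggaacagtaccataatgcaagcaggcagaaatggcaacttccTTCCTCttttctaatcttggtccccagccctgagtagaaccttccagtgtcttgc
Fcgr4: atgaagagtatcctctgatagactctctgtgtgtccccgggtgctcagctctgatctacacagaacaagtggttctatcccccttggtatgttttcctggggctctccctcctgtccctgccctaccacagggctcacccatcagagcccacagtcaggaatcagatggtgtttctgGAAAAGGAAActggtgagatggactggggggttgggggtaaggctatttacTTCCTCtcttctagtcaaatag

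The Fcgr1 window held 1 GAS match, TTCCCAGAA, beginning 109 bases before the start site, and the Fcgr4 window held 1 ISRE match, GAAAAGGAAA, beginning 73 bases before it. Each also held 1 PU.1 core, written TTCCTC on the strand shown, at 55 and 22 bases, and no matches overlapped. Among 32851 RefSeq windows of this length, 7.02% held a GAS match, 2.98% an ISRE match and 23.3% a PU.1 core. The windows of Fcgr2b, Fcer1g and Fcgrt held none of these letters, and that of Fcgr3 a PU.1 core. A match is a description of the sequence and not a site shown to be bound.

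Downstream of the activating receptors, 26 genes of the signalling cascade from Src-family kinases and Syk to phospholipase C and Card9 were tested, and edgeR called 0. The list had 6 genes at an unadjusted p under 0.05, beside 27.8% of all genes, DESeq2 called 4, beside 18.0%, and limma-voom 0, and the median log2 fold change was -0.06. Plcg1 and Gab2 had its smallest p-values. Plcg1, a phospholipase C, stood at 20.9 ± 1.60 and 32.9 ± 4.95 CPM (0.66 ± 0.14, edgeR adjusted p = 0.0561), and Gab2, a docking protein for PI3 kinase, at 76.0 ± 4.15 and 97.1 ± 5.42 CPM (0.35 ± 0.09, edgeR adjusted p = 0.0766). Of 13 genes of inhibitory signalling edgeR called 0, with 3 at an unadjusted p under 0.05, 2 called by DESeq2 (18.0% of all genes) and 0 by limma-voom. The smallest p-values there belonged to Cblb, a ubiquitin ligase that restrains receptor signalling (-0.76 ± 0.17, edgeR adjusted p = 0.0632), and the adaptor gene Dok3 (-0.78 ± 0.20, edgeR adjusted p = 0.0819). Inpp5d, named after its value was seen because SHIP acts with Fcgr2b, stood at 0.30 ± 0.15 (edgeR adjusted p = 0.246).

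Of 26 genes of the phagocytic cup and its actin, 0 rose, 1 fell and 25 were not called, near the 3.45% called over all genes, with a median of -0.16. The gene that fell was Elmo1, which works with Dock proteins to activate Rac (54.6 ± 1.34 to 39.5 ± 1.67 CPM, -0.47 ± 0.08, edgeR adjusted p = 0.0392). That call was lost with total-count scaling (edgeR adjusted p = 0.0599), where Elmo1 stood at -0.60, and in the fits with no low-count filter or a stricter one. It was also lost whenever 1 library was left out (edgeR adjusted p = 0.0515 to 0.217). DESeq2 called 3 genes of this list, a smaller share than its 18.0% over all genes.

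Fcer1g also carries the signal of receptors other than those for IgG. Of 10 tested partners, 1 rose, 1 fell and 8 were not called, beside 3.45% of all genes, with a median of -0.39. Lilra5 rose from 2.98 ± 1.07 to 9.27 ± 1.29 CPM (1.64 ± 0.30, edgeR adjusted p = 0.0481). Its relative Lilra6 fell from 32.3 ± 3.28 to 13.4 ± 2.09 CPM (-1.27 ± 0.15, edgeR adjusted p = 0.0291). Reads of Lilra6 and of the near-identical Pira genes may not be separable. Clec4n, the Dectin-2 gene and the partner with the most counts, is named after its values were seen. It stood at 1373, 1162 and 1441 CPM at 2 kPa and at 2266, 2127 and 2182 CPM at 50 kPa, without overlap (0.73 ± 0.16, edgeR adjusted p = 0.0602).

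The edgeR counts of the next 4 lists read against 3.45% of all genes called, 1.47% higher and 1.98% lower at 50 kPa. Among 8 genes of other ITAM adaptors, 0 rose, 2 fell and 6 were not called, with a median of -0.06. Of these 8, 4 had an unadjusted p under 0.05 by edgeR, beside 27.8% of all genes. The genes that fell were Cd79a (-3.36 ± 0.51, edgeR adjusted p = 0.036) and Cd79b (-2.81 ± 0.33, edgeR adjusted p = 0.0291), the chains of the B cell receptor, both also among the B cell markers. Of the list, 4 genes were above 0 and 4 below, and its sum was 417 to 536 CPM at 2 kPa and 553 to 620 CPM at 50 kPa. Most of that sum was Tyrobp, named after its values were seen. It was higher at 50 kPa without overlap (405 ± 79.0 to 573 ± 37.7 CPM, 0.50 ± 0.17, edgeR adjusted p = 0.133), as were 17.2% of tested genes. Among 17 genes of other ITIM receptors, 0 rose, 1 fell and 16 were not called, with a median of 0.09. Log2 fold changes were above 0 for 11 and below 0 for 6, and 5 had an unadjusted p under 0.05 by edgeR (27.8% of all genes). The summed level was 4102 to 5836 CPM at 2 kPa and 6223 to 6488 CPM at 50 kPa. Clec12a, an inhibitory lectin of myeloid cells, fell from 62.0 ± 22.8 to 20.6 ± 3.39 CPM (-1.59 ± 0.28, edgeR adjusted p = 0.045). Of 8 tested genes of other immunoglobulin receptors, 0 rose, 1 fell and 7 were not called, with a median of -1.11. The gene that fell was Fcrla, an intracellular Fc receptor-like protein of B cells (4.90 ± 0.749 to 1.34 ± 0.219 CPM, -1.87 ± 0.22, edgeR adjusted p = 0.0291). Of these 8 genes 6 were below 0 and 2 above, with 5 at an unadjusted p under 0.05 by edgeR. Fcrls, the one with the most counts and named after its values were seen, was among the 2 (174 ± 114 to 355 ± 71.5 CPM, overlapping, 1.03 ± 0.48, edgeR adjusted p = 0.218). Of 12 listed immunoglobulin chains 1, Igj, was matched in the tables, and it fell (-4.27 ± 0.63, edgeR adjusted p = 0.0357).

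**Figure D5:**
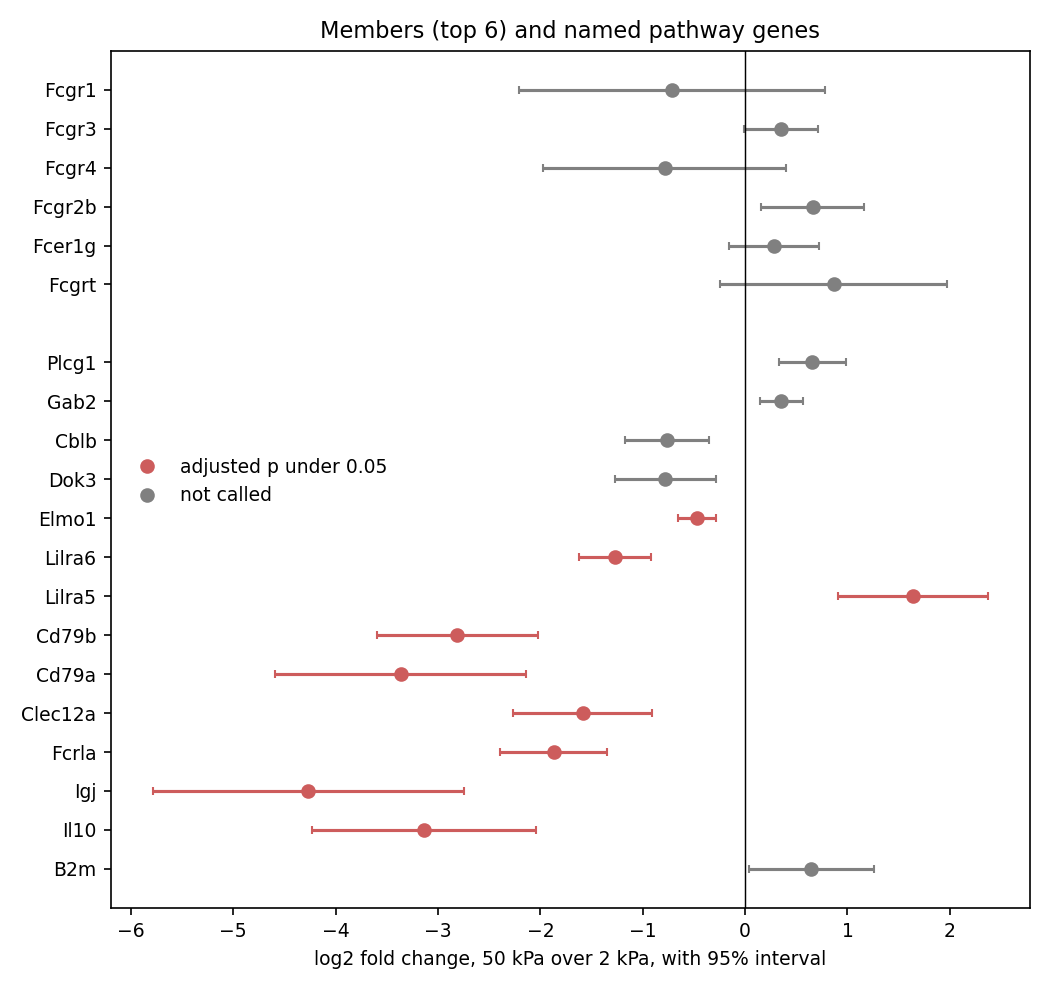
Log2 fold change of 50 kPa over 2 kPa with its 95% interval (horizontal axis) for the 6 genes at the top and for the pathway genes named by rule below, with genes at an adjusted p under 0.05 in red. None of the 6 is red, and among the pathway genes Lilra5 is the only red point above 0.

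Several cell types of a marrow culture carry Fc gamma receptors, so their markers are given beside these results. The counts read against 3.45% of all genes called by edgeR, 18.0% by DESeq2 and 27.8% at an unadjusted p under 0.05. Neutrophils carry Fcgr3 and Fcgr4. Of 12 neutrophil markers 6 fell and 0 rose (median -2.80), and their summed level was 3788 to 7589 CPM at 2 kPa and 858 to 1651 CPM at 50 kPa. Of 10 B cell markers 7 fell and 0 rose (median -2.64), with Cd22 the exception given above. Mast cells and basophils carry Fcer1g and Fcgr2b, and their 10 markers gave 0 calls by edgeR and 8 unadjusted p-values under 0.05, with 7 called by DESeq2 (median -2.21, summed level 345 to 837 CPM and 169 to 242 CPM). Of these 10, 9 were below 0 and 1, Kit, above (0.47 ± 0.31, edgeR adjusted p = 0.358). Of 8 monocyte markers 3 fell and 0 rose (median -1.23), with summed levels of 1102 to 1898 and 828 to 1630.2 CPM, which overlapped. Log2 fold changes were below 0 for 7 of them. The other, F13a1, was higher at 50 kPa without overlap (0.86 ± 0.22, edgeR adjusted p = 0.0817). Of 11 macrophage markers edgeR called 0, with 6 at an unadjusted p under 0.05 and 4 called by DESeq2 (median 0.98, 2020.0 to 3899 and 4745 to 5788 CPM). Among them 9 were above 0 and 2 below. Of 12 dendritic cell markers 2 fell, Adam23 and Cd226, and 0 rose. Eosinophil markers gave 0 calls among 6 by edgeR, with 4 at an unadjusted p under 0.05 and 2 called by DESeq2 (median -1.49, 196 to 493 and 98.6 to 169 CPM). Of these 6, 4 were below 0 and 2 above. One of the 2, Ear6, was higher at 50 kPa without overlap (28.1 ± 5.81 to 38.5 ± 4.68 CPM, 0.45 ± 0.18, edgeR adjusted p = 0.161). T and NK cell markers had the lowest summed level of the 8 lists, at 4.87 to 11.7 and 4.29 to 6.18 CPM in sum over 6 tested genes (edgeR 0 called, 3 at an unadjusted p under 0.05, DESeq2 1). No marker in the tables was at 0 counts in all libraries. The part of these cell types in the receptor values was not tested.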

How the data were processed

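PolyA RNA of 6 marrow cultures, 3 per stiffness, was made into libraries with a directional kit, per the labels' protocols. The authors deposited 1 table of whole-number read counts per gene symbol for each library. The tools, per the submitters' processing notes, include HTSeq 0.6.1p2, TopHat2 2.0.11, FastQC 0.11.2 and edgeR (3.8.6, 3.16.5), and hg19 and mm10 as builds, without role or order. Annotation and strandedness of counting were not given in the sources used here.

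Members and gene lists were chosen with earlier results of these data known. R 4.3.3 was used with edgeR 4.0.16 (filterByExpr with minimum count 10 and minimum total 15, TMM, glmQLFit and glmQLFTest), Benjamini-Hochberg adjusted over 13155 genes, with limma 3.58.1 and DESeq2 1.42.0 as alternatives. The standard error is the log2 fold change divided by the square root of the F value. Ratios added 0.5 counts. Pathway genes were named where called, otherwise the 2 with the smallest p per list (10 lists), with exceptions marked. Genes of like pattern were the 3 with the highest Pearson r at a mean of at least 5 CPM. Lengths came from GENCODE vM21 and promoters from RefSeq. The test was checked on simulated counts. Sequences were aligned with Biopython 1.88, and matplotlib 3.10.9 drew the plots. One listed gene is not reported here.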

Additional observations from a re-analysis of the deposited data

How the results depend on the processing

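Each of the 6 genes kept its direction in all 16 other fits, and calls among them arose in 2: Fcgr2b with DESeq2 (0.66) and Fcgr1 with the replicate block (-0.80, edgeR adjusted p = 0.0398), where Fcgr4 stood at -0.93 (edgeR adjusted p = 0.0805). The replicate numbers were not taken to mark pairs, since they are not stated to mark a shared animal or day. Deviations from the group means correlated at r = 0.54, -0.11 and 0.49 between samples of the same number. With 3 samples per group, and high tension replicates 1 and 2 close to each other, these values cannot decide whether the numbers mark pairs. Over the fits that left out 1 library, Fcgr1 ranged from -1.53 to -0.09, Fcgr4 from -1.49 to -0.49, Fcgr2b from 0.48 to 0.86 and Fcgrt from 0.62 to 1.52. The 4 ratios, and the ratio of the summed activating receptors to Fcgr2b, stayed lower at 50 kPa in every alternative run. The paired sign-flip test gave exact p = 0.25 for 3 ratios, the smallest that 3 pairs allow, and 0.5 for Fcgr3.

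Counts of called genes, higher and lower, were less stable: 77 and 257 with total counts, 20 and 16 with at least 5 CPM in 3 libraries, 1121 and 1251 with DESeq2, 254 and 522 with the replicate block, and 0 and 0 with high tension replicates 1 and 2 summed (2138 at an unadjusted p under 0.05). Leaving out 1 library gave 0 to 255 higher and 0 to 256 lower (2062 to 4184 at an unadjusted p under 0.05). The pathway genes called in the fit with all libraries lost their calls without low tension replicate 2 or 3 or high tension replicate 1 or 2. Fewer samples entered those fits, and beyond this the cause was not tested. Of the alternative values for named pathway genes, 156 kept their side of the threshold, 58 lost a call and 8 gained one. The lengths used for the summed receptors were chosen after seeing the data.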
